A study of Danio rerio with 6 samples.

Results

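The genes described here are transcription factors that specify and maintain blood stem and progenitor cells, together with the receptor kinase KIT, in the kidney marrow of adult zebrafish. They were chosen by name: MYB, gata2a, gata2b, runx1, tal1, LMO2, gfi1aa, gfi1b, lyl1 and KIT (kita of zebrafish), 10 genes in all. Of these, 9 were matched to a row of the count tables, which hold 31484 genes, and these 9 are called the members below. A row for gata2a was found under the symbol GATA2, which RefSeq gives as a synonym of gata2a alone, and lyl1, a relative of tal1, was not matched and has no value here. Kidney marrow came from fish aged 3 to 5 months with the genotype tet2 -/- (tet2 mutant, 3 libraries) or tet2 wt/wt (wild type, 3 libraries), and total RNA of a cell suspension, for which the labels describe no sorting, was sequenced. The replicates are labelled as biological, while the allele, the sex and the number of fish behind a library are not described, so p-values measure the spread between these libraries. The question is how the transcripts of these regulators differ between tet2 mutant and wild type marrow.

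Blood stem cells arise in the embryo from the wall of the aorta under runx1, and they later settle in the kidney, which is the blood-forming organ of adult fish as bone marrow is in mammals. TAL1, LMO2, GATA factors, E proteins and LDB1 assemble on DNA as 1 complex, while RUNX1 binds DNA with its partner CBFB and MYB sustains the division of progenitors. GFI1 and GFI1B are repressors that recruit the demethylase KDM1A, and KIT carries the signal of its ligand, stem cell factor, from the cell surface. Several members are also used outside stem cells: gfi1b and tal1 in red cell and thrombocyte precursors, gata2a, tal1 and LMO2 in endothelium, and kita in pigment cells, whose loss in fish gave the allele name sparse. The enzyme Tet2 removes DNA methylation by oxidising the methyl group of cytosine, and TET2 is often mutated in human blood cancers.

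Library totals lay between 46637322 and 49229143 counts in tet2 mutant marrow and between 41285460 and 47228518 in wild type marrow. Levels are given as CPM, that is, read counts scaled to a common library size with TMM factors, which correct for differences in library composition. TET2 itself had 51.1, 45.1 and 30.5 CPM in the tet2 mutant libraries 1, 2 and 3 and 48.1, 52.5 and 48.1 CPM in the wild type libraries. The allele need not lower the transcript, so this level does not check the labels. Egg transcripts set libraries of 1 genotype apart: zona pellucida genes summed to 704, 443 and 4287 CPM in tet2 mutant libraries 1, 2 and 3, and to 8.61, 8.50 and 1056 CPM in wild type libraries 1, 2 and 3. Both libraries numbered 3 held the most of their genotype. The marrow marker ptprc, a surface phosphatase of all white cells, had 689 ± 35.4 CPM in tet2 mutants and 606 ± 9.28 in wild type (SD, n = 3 each).

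In tet2 mutant marrow 8 of the 9 members had a log2 fold change (tet2 mutant minus wild type) below 0, against 48.1% of all genes tested, but none passed the test. Of these 8, gfi1b at -0.05 and gfi1aa at -0.01 lay near 0, and their sign turned in 5 and 6 of 15 alternative fits. KIT stood lowest, with a fitted level 0.564 times that of wild type, followed by LMO2 at 0.722, MYB at 0.725, tal1 at 0.781 and gata2b at 0.783 times. For each of these 5 genes all 3 tet2 mutant libraries lay below all 3 wild type libraries on TMM-scaled CPM. For MYB and KIT this depends on the scaling. Their tet2 mutant 1 and wild type 3 lay close, at 387 and 396 CPM for MYB and 15.7 and 16.0 CPM for KIT. With size factors from all genes in place of TMM, the genotypes overlap for MYB and for KIT. The levels of runx1, gfi1b, gfi1aa and gata2a overlapped between the genotypes.

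By edgeR's quasi-likelihood test, 0 of the 9 members had a p under 0.05 after Benjamini-Hochberg adjustment, against 0.301% of the 21893 genes tested (66 genes). DESeq2 and limma voom also called 0 of the 9. An unadjusted p under 0.05 was reached by 3 members (KIT, LMO2 and MYB, all with estimates below 0), against 11.9% of all genes in either direction and 6.93% with estimates below 0. On TMM-scaled CPM, complete separation with the tet2 mutants below was seen for 5 of the 9, against 10.3% of all genes. Complete separation with the tet2 mutants above was seen for 0 of the 9, against 7.88%. These shares were not counted under other scalings. The median log2 fold change was -0.35 over the members and 0.02 over all genes tested. All 9 members passed the filter on low counts. In bulk samples of this kind, fewer cells of a type and less RNA per cell cannot be told apart.

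**Figure D1:**
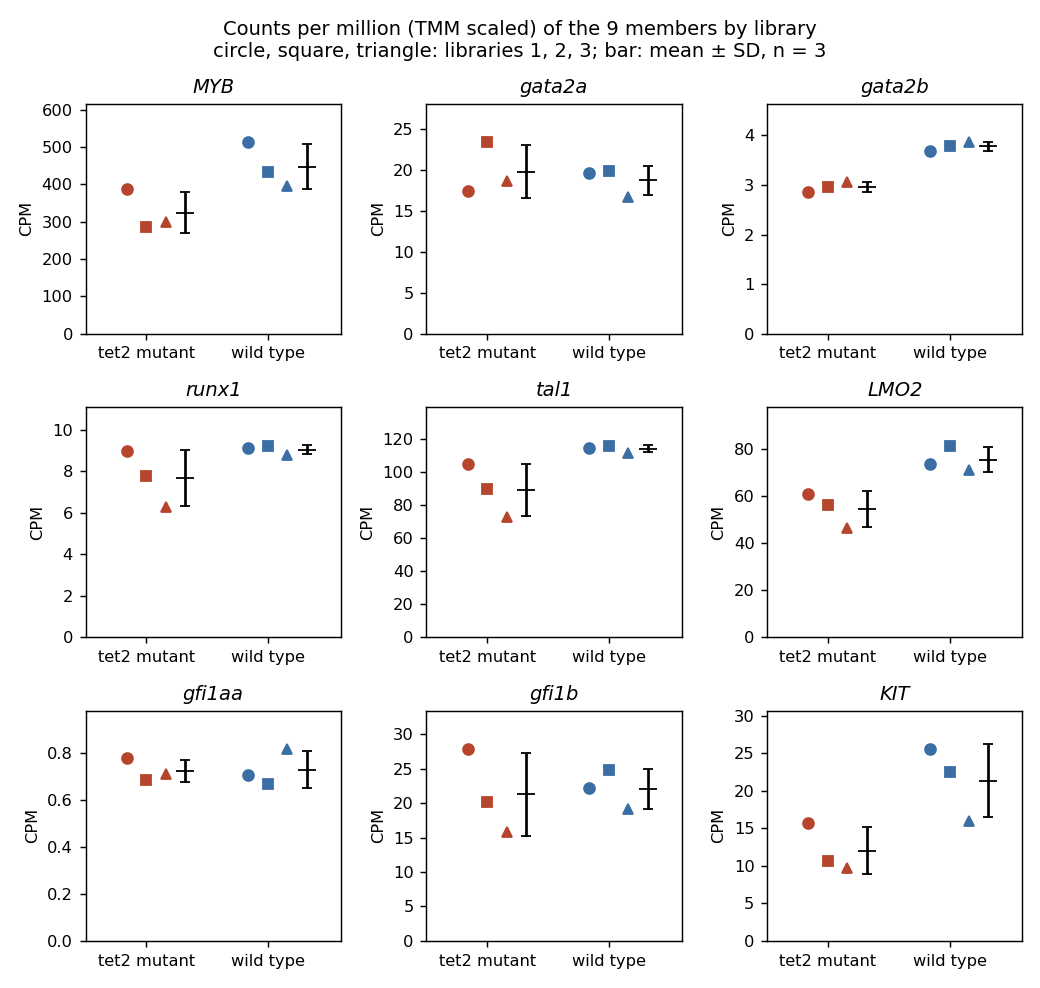
CPM of each of the 9 members (vertical axes, each starting at 0) in the 3 tet2 mutant libraries (left, red) and the 3 wild type libraries (right, blue), with circle, square and triangle for libraries 1, 2 and 3 and the mean ± SD (n = 3) beside them. KIT, LMO2, MYB, tal1 and gata2b show no overlap between the genotypes on this scaling, and the other 4 genes do. The gap for KIT is smaller than its counting error.

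The members spanned a wide range of levels. Per kilobase of gene model (RPKM, averaged over the 6 libraries), MYB stood highest at 116 and gfi1aa lowest at 0.498, a 234-fold span. Next after MYB came tal1 at 38.5 and LMO2 at 36.0 RPKM, whose ranges overlapped in both genotypes. Within libraries tal1 lay above LMO2 in 5 of the 6, so that their order did not hold in every library. They were followed by runx1 at 18.5 and gfi1b at 16.5 RPKM, which overlapped in the tet2 mutants but not in wild type, with runx1 above in 5 of the 6 libraries. The order of this pair rests on the gene model of runx1, which covers 452 bases in 3 exons and is the shortest of the 9. Lower still were gata2a at 6.52 and KIT at 4.69 RPKM, which overlapped in wild type but not in the tet2 mutants, with gata2a above in 5 of the 6 libraries. Then came gata2b at 1.73 RPKM. Among all genes tested, the RPKM of MYB exceeded that of 97.6%, tal1 that of 91.9%, LMO2 that of 91.2% and gfi1aa that of 19.3%.

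**Figure D2:**
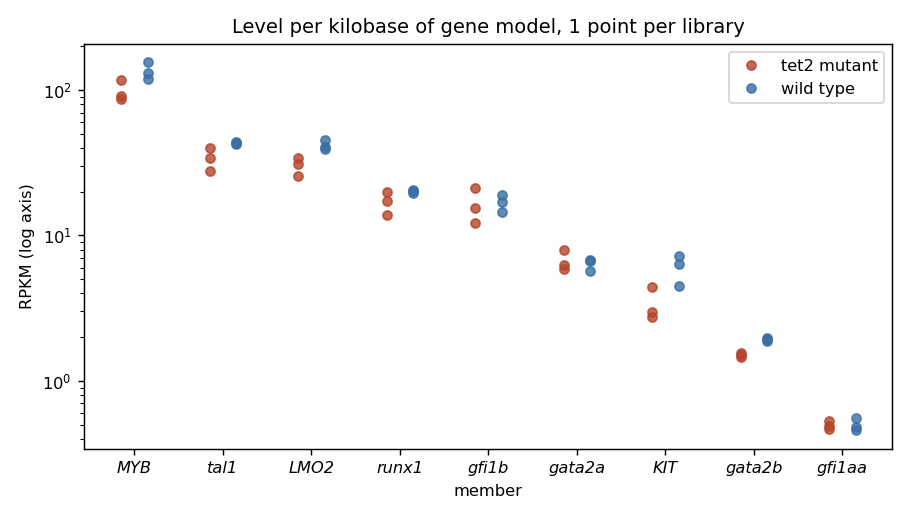
RPKM of each member on a log axis, ordered by the mean over the 6 libraries, with 1 point per library (tet2 mutant left in red, wild type right in blue). MYB lies above all others and gfi1aa below all others in every library.

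The core pair of the TAL1 complex, tal1 and LMO2, lay lower in every tet2 mutant library than in any wild type library, without passing the test. The bHLH factor gene tal1 (ENSDARG00000019930, GRCz10 chromosome 22, 16509305 to 16519060, plus strand, 4 exons) had 105, 89.8 and 73.2 CPM in tet2 mutant libraries 1, 2 and 3 and 115, 116 and 112 CPM in wild type libraries 1, 2 and 3. All tet2 mutant values lay below the lowest wild type value, and the tet2 mutant libraries spread more widely (89.3 ± 15.8 CPM) than the wild type ones (114 ± 2.18 CPM; SD, n = 3 each). Fitted over all libraries, the log2 fold change was -0.36 (SE 0.15, 95% interval -0.72 to 0.01, adjusted p = 0.426 by edgeR).

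LMO2 (ENSDARG00000095019, GRCz10 chromosome 18, 38307869 to 38315657, plus strand, 3 exons) encodes the LIM protein that bridges TAL1 and GATA factors without binding DNA itself. It had 61.0, 56.1 and 46.3 CPM in tet2 mutant libraries 1, 2 and 3 and 73.7, 81.5 and 71.1 CPM in wild type libraries 1, 2 and 3. The genotypes did not overlap, and the lowest value was again that of tet2 mutant 3. Its mean was 54.5 ± 7.49 CPM in tet2 mutants and 75.4 ± 5.37 CPM in wild type (SD, n = 3 each). Its log2 fold change was -0.47 (SE 0.14, 95% interval -0.80 to -0.13, adjusted p = 0.264 by edgeR), the smallest adjusted p among the members. These intervals hold for 1 gene at a time and carry no adjustment for the number of genes.

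MYB and runx1 are both required for definitive blood stem cells in zebrafish. MYB (ENSDARG00000053666, GRCz10 chromosome 23, 31888892 to 31903512, plus strand, 16 exons) had 387, 286 and 300 CPM in tet2 mutant libraries 1, 2 and 3 and 514, 433 and 396 CPM in wild type libraries 1, 2 and 3. The highest tet2 mutant library, number 1, lay just under the lowest wild type library, number 3. Means were 324 ± 55.0 CPM in tet2 mutants and 448 ± 60.1 CPM in wild type (SD, n = 3 each). This gave a log2 fold change of -0.46 (SE 0.16, 95% interval -0.86 to -0.07, adjusted p = 0.343 by edgeR). MYB shares 102 exon bases with mtfr2 on the opposite strand, and the strand setting of the counting is not given in the sources used here. That neighbour had 27.3 ± 8.94 CPM in tet2 mutants and 22.9 ± 1.18 in wild type, and its part in the values of MYB was not tested.

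The Runt domain gene runx1 (ENSDARG00000087646, GRCz10 chromosome 1, 1241694 to 1253961, minus strand) had 8.97, 7.80 and 6.27 CPM in tet2 mutant libraries 1, 2 and 3 and 9.11, 9.24 and 8.80 CPM in wild type libraries 1, 2 and 3. Tet2 mutant 1 lay within the wild type range, and the other tet2 mutant libraries lay below it. Its log2 fold change was -0.24 (SE 0.19, 95% interval -0.69 to 0.22, adjusted p = 0.678 by edgeR), and -0.12 when tet2 mutant 3 was left out. Relative to runx1, MYB was at a log2 ratio of 5.31 ± 0.19 in tet2 mutants and 5.54 ± 0.17 in wild type (SD, n = 3 each). This difference of -0.23 had p = 0.2 in an exact two-sided permutation test (0.3 after adjustment over the 3 pairs of members compared), where 0.1 is the smallest p that 3 libraries against 3 allow.

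The duplicates of GATA2 were gata2b, whose genotypes did not overlap, and gata2a, whose genotypes did, and neither passed the test. The gene gata2b (ENSDARG00000009094, GRCz10 chromosome 6, 40796479 to 40806264, plus strand, 6 exons) is the copy that acts in the blood-forming endothelium of the zebrafish embryo. It had 2.86, 2.96 and 3.06 CPM in tet2 mutant libraries 1, 2 and 3 and 3.69, 3.80 and 3.87 CPM in wild type libraries 1, 2 and 3. The genotypes were separate and each was tightly grouped, with a coefficient of variation of 3.40% in tet2 mutants and 2.39% in wild type. Counting error alone amounts to 8.36% in tet2 mutants and 7.78% in wild type at these counts, so the replicate spread here understates the error. For gata2b the log2 fold change was -0.35 (SE 0.20, 95% interval -0.84 to 0.13, adjusted p = 0.56 by edgeR). The opposite-strand gene si:ch211-157b11.6 shares 391 of the 1955 bases of the gata2b model. It held between 0 and 15 counts per library, against 136 to 175 for gata2b. How reads in the shared bases were assigned is not given, and the part of this overlap in the values of gata2b was not tested. A further gene on the opposite strand, sxph, overlaps gata2b without sharing exon bases.

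The copy gata2a (ENSDARG00000059327, GRCz10 chromosome 11, 3828494 to 3846289, minus strand, 7 exons) had 17.4, 23.4 and 18.6 CPM in tet2 mutant libraries 1, 2 and 3 and 19.7, 19.9 and 16.7 CPM in wild type libraries 1, 2 and 3. The genotypes overlapped, and the highest value was that of tet2 mutant 2. It was the 1 member with a log2 fold change above 0, at 0.08 (SE 0.16, 95% interval -0.31 to 0.47, adjusted p = 0.881 by edgeR), and its sign turned to -0.06 without tet2 mutant 2 and to -0.01 without wild type 3. The within-library log2 ratio of gata2b to gata2a was -2.54 ± 0.21 in tet2 mutants and -2.17 ± 0.16 in wild type (SD, n = 3 each). All 3 tet2 mutant ratios lay below all 3 wild type ratios, a difference of -0.38 with p = 0.1 in an exact two-sided permutation test (0.3 after adjustment over the 3 pairs of members), the smallest p it allows without pairing. Between same-numbered libraries, this ratio differed by -0.15, -0.54 and -0.44 for numbers 1, 2 and 3 (tet2 mutant minus wild type). Exact two-sided sign flips within these pairs of libraries gave p = 0.25 (0.75 after adjustment), the smallest p that 3 pairs allow, so neither test of the ratio could pass 0.05.

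The GFI1 family repressors overlapped between the genotypes. GFI1B limits stem cell division and is needed for red cells and platelets in mouse, and its zebrafish gene gfi1b (ENSDARG00000079947, GRCz10 chromosome 21, 17243516 to 17259903, minus strand, 7 exons) had 27.8, 20.1 and 15.9 CPM in tet2 mutant libraries 1, 2 and 3. Wild type libraries 1, 2 and 3 held 22.2, 24.9 and 19.1 CPM of it. Tet2 mutant 1 was the highest and tet2 mutant 3 the lowest of all 6 libraries. With a log2 fold change of -0.05 (SE 0.23, 95% interval -0.60 to 0.49, adjusted p = 0.943 by edgeR), gfi1b had no set direction: leaving out tet2 mutant 3 gave 0.11, and leaving out tet2 mutant 1 gave -0.30.

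The GFI1 copy gfi1aa (ENSDARG00000020746, GRCz10 chromosome 2, 10983145 to 11002050, plus strand, 7 exons), which acts in the early red cells of the zebrafish embryo, had the lowest level of the 9. Its duplicate gfi1ab, a family relative named after its values were seen, had 12.6 ± 1.11 CPM in tet2 mutants and 13.3 ± 1.80 in wild type (log2 fold change -0.08, adjusted p = 0.885 by edgeR). The member gfi1aa had 0.779, 0.687 and 0.712 CPM in tet2 mutant libraries 1, 2 and 3 and 0.706, 0.669 and 0.818 CPM in wild type libraries 1, 2 and 3, from 28 to 37 counts per library. The highest and the lowest of the 6 values were both wild type. Its log2 fold change was -0.01 (SE 0.27, adjusted p = 0.993 by edgeR), and the 95% interval ran from 0.631 to 1.56 times the wild type level, so that a difference within those bounds was not detectable at this depth. The log2 ratio of gfi1b to gfi1aa was 4.11 ± 0.36 in tet2 mutants and 4.19 ± 0.27 in wild type (SD, n = 3 each; exact two-sided permutation test, p = 0.8).

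KIT, the receptor of stem cell factor (ENSDARG00000043317, GRCz10 chromosome 20, 22435838 to 22478728, minus strand, 21 exons), showed the widest difference among the members. It had 15.7, 10.7 and 9.76 CPM in tet2 mutant libraries 1, 2 and 3 and 25.5, 22.5 and 16.0 CPM in wild type libraries 1, 2 and 3. On TMM-scaled CPM the genotypes were separate, though tet2 mutant 1 and wild type 3 lay close, at 15.7 and 16.0 CPM. Counting error for KIT was 4.16% in tet2 mutants and 3.28% in wild type, more than that gap, so the separation is not resolved. Means were 12.0 ± 3.19 CPM in tet2 mutants and 21.3 ± 4.86 CPM in wild type (SD, n = 3 each). KIT had a log2 fold change of -0.83 (SE 0.26, 95% interval -1.44 to -0.22, adjusted p = 0.275 by edgeR). Leaving out 1 library gave values between -1.06 and -0.69. A further fit took the log2 of the summed zona pellucida level of each library as a covariate. In it the log2 fold change of KIT was -0.40, that of LMO2 -0.33, that of MYB -0.29, that of tal1 -0.25 and that of runx1 -0.12. None of them passed. Over all 15 alternatives, this fit included, gata2b ran from -0.40 to -0.27. The covariate was itself higher in each tet2 mutant library than in the wild type library of the same number, so this fit cannot tell egg content and genotype apart.

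**Figure D3:**
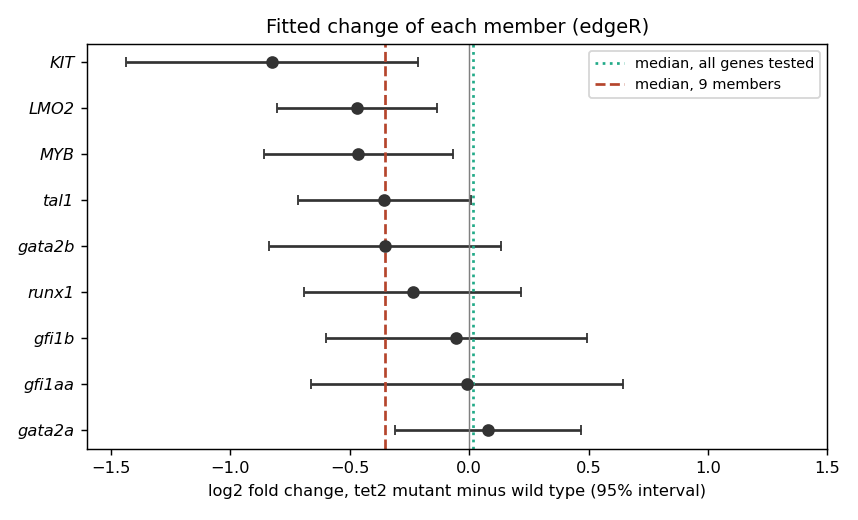
Fitted log2 fold change (tet2 mutant minus wild type, horizontal axis) of each member with its 95% interval, unadjusted for the number of genes. KIT, LMO2 and MYB have intervals that end below 0, while the median of all genes tested (dotted) lies at 0.02 and that of the 9 members (dashed) at -0.35.

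KIT works in a family of receptors with ligands and signal carriers, and these did not pass the test. Of 23 matched genes for KIT ligands and signalling, 22 were tested by edgeR and 0 passed, with 0 at an unadjusted p under 0.05 and 0 called by DESeq2 or limma voom. Their median log2 fold change was -0.02, with 10 above 0 and 12 below. JAK2 (ENSDARG00000018882), a kinase downstream of cytokine receptors, had 117 ± 1.74 CPM in tet2 mutants and 99.5 ± 5.45 in wild type, and the Src family kinase LYN 26.0 ± 4.47 and 20.8 ± 2.17 CPM in tet2 mutants and wild type. Chosen for their role after their values were seen, the ligand gene kitlga had 3.30 ± 0.412 CPM in tet2 mutants and 4.29 ± 0.621 in wild type, and the receptor duplicate kitb 1.47 ± 0.345 and 0.917 ± 0.183 CPM in tet2 mutants and wild type. The ranges of the genotypes stayed apart for kitb, which was higher in tet2 mutants, with 1.24 CPM in tet2 mutant 1 and 1.03 in wild type 2 nearest. This separation rests on 31 to 87 counts per library, with counting error of 11.9% in tet2 mutants and 15.8% in wild type. For kitlga, which had the lower mean in tet2 mutants, the ranges all but touched, at 3.617 CPM in tet2 mutant 3 and 3.62 in wild type 1. Counting error for kitlga was 7.91% in tet2 mutants and 7.31% in wild type, far more than that gap, so a separation is not resolved. Adjusted p was 0.591 for kitlga and 0.466 for kitb by edgeR.

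The partners of the TAL1, LMO2, GATA and RUNX complexes lay slightly below wild type for the most part, and none passed. Of the 13 tested by edgeR, 0 passed and 0 had an unadjusted p under 0.05, DESeq2 and limma voom called 0, 11 were below 0 and the median log2 fold change was -0.18. The E protein gene tcf3b, whose product pairs with TAL1, had 55.6 ± 7.59 CPM in tet2 mutants and 67.2 ± 5.69 in wild type (log2 fold change -0.27, adjusted p = 0.52 by edgeR), without overlap. TCF12, another E protein gene, had 30.9 ± 4.28 CPM in tet2 mutants and 35.6 ± 2.88 in wild type.

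Family relatives of the members had estimates on both sides of 0. The red cell factor gene gata1a counted both here and among the partners. By edgeR, 0 of the 20 tested passed, while 5 reached an unadjusted p under 0.05. By DESeq2, 1 of them was called (MYBL1, higher), and by limma voom 0, with 10 above 0 and 10 below and a median log2 fold change of 0.03. MYBL1, a relative of MYB known for its role in mouse spermatocytes, had 22.9 ± 4.70 CPM in tet2 mutants and 13.0 ± 0.922 in wild type, with all tet2 mutants above all wild type libraries (log2 fold change 0.82, SE 0.18, adjusted p = 0.146 by edgeR). MYB and MYBL1 thus had estimates of opposite sign, a difference that was not tested. GATA5, an endoderm and heart factor gene, had 0.965 ± 0.621 CPM in tet2 mutants and 0.214 ± 0.052 in wild type. The other genes under that limit, named after their values were seen, were RUNX3 (log2 fold change -0.35), PDGFRA (-0.80) and PDGFRB (0.72).

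Other regulators of stem and progenitor cells also had estimates on both sides of 0. By edgeR, 0 of the 20 tested passed and 1 reached an unadjusted p under 0.05. None were called by DESeq2 or limma voom, 8 were above 0 and 12 below, and the median log2 fold change was -0.03. The chromatin gene asxl1 had 103 ± 7.89 CPM in tet2 mutants and 78.4 ± 5.30 in wild type, without overlap (log2 fold change 0.39, adjusted p = 0.268 by edgeR). MEIS1 (ENSDARG00000012078), a homeobox gene of stem cells, had 17.0 ± 2.08 CPM in tet2 mutants and 22.3 ± 4.92 in wild type. Cofactors of GFI1, MYB and RUNX1 had 6 of 7 tested above 0, at a median of 0.14, with 0 passing by edgeR, DESeq2 or limma voom and 0 at an unadjusted p under 0.05. The corepressor gene RCOR1 had 91.2 ± 2.64 CPM in tet2 mutants and 77.2 ± 16.4 in wild type, and KDM1A, the demethylase that GFI1 proteins recruit, 173 ± 15.4 and 157 ± 8.24 CPM in tet2 mutants and wild type.

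Markers of other cell types that the suspension can hold also had estimates away from 0, and their part in the values of the members was not tested. No gene of these marker lists was at 0 counts in all 6 libraries. Endothelial markers, from cells that also use tal1, LMO2 and gata2a, had 13 of 13 tested below 0, a median log2 fold change of -0.41 and a summed level of 380 to 586 CPM in tet2 mutants against 564 to 698 in wild type. Among them, clec14a had 14.4 ± 2.02 CPM in tet2 mutants and 22.4 ± 1.82 in wild type, and ESAM 2.85 ± 0.483 and 5.42 ± 1.04 CPM in tet2 mutants and wild type. Erythroid markers, from a lineage that uses tal1, LMO2 and gfi1b, had 9 of 10 tested below 0 at a median of -0.37, and summed to 3178 to 5286 CPM in tet2 mutants against 4728 to 6124 in wild type. The red cell factor gene klf17 had 46.6 ± 5.79 CPM in tet2 mutants and 73.8 ± 9.47 in wild type, and the ammonium channel gene RHAG 374 ± 41.3 and 541 ± 48.8 CPM in tet2 mutants and wild type. In neither list did a gene pass by edgeR or limma voom, with 5 endothelial and 2 erythroid genes at an unadjusted p under 0.05, and DESeq2 called 2 in each, all lower.

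Among further lists from outside the blood, kidney tubule and skeletal muscle had medians further from 0 than these, while the stromal median lay nearer 0. Kidney tubule markers had 11 of 13 tested below 0 at a median of -0.80 and summed to 330 to 464 CPM in tet2 mutants against 567 to 897 in wild type. In this list the transporter gene SLC5A12 fell to 15.6 ± 2.55 CPM in tet2 mutants, against 45.3 ± 6.64 in wild type (log2 fold change -1.54, adjusted p = 0.0405 by edgeR), and with the replicate number as a block 6 were lower. Without any 1 of the 6 libraries SLC5A12 no longer passed, at values from -1.68 to -1.42. Skeletal muscle markers had all 5 tested below 0 at a median of -2.03 (28.3 to 67.1 CPM in tet2 mutants, 146 to 198 in wild type). None of them passed by edgeR or limma voom, though all 5 reached an unadjusted p under 0.05. DESeq2 called 5 and the fit with the block 3, all lower. The muscle gene tpma had 6.56 ± 2.85 CPM in tet2 mutants and 26.8 ± 4.04 in wild type, and actc1b 26.2 ± 10.4 and 82.5 ± 15.02 CPM in tet2 mutants and wild type. Stromal markers had 8 of 10 below 0 at a median of -0.20 and summed to 405 to 614 CPM in tet2 mutants against 703 to 778 in wild type. Most of this sum was CXCL12, named after its values were seen, at 402 ± 86.0 CPM in tet2 mutants and 605 ± 44.6 in wild type. The matrix gene POSTN (ENSDARG00000043806) had 2.48 ± 0.427 CPM in tet2 mutants and 5.41 ± 1.29 in wild type. By edgeR and limma voom 0 stromal genes passed, and 1 was called by DESeq2, lower. An unadjusted p under 0.05 was reached by 4: CXCL12 and both copies of POSTN, lower, and PDGFRB, higher in tet2 mutants.

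Oocyte markers had 11 of 11 above 0 at a median of 1.87, but ran from 193 to 2023 CPM among tet2 mutant libraries and from 9.65 to 617 CPM among wild type ones. By edgeR 0 passed and 0 reached an unadjusted p under 0.05. Neither DESeq2 nor limma voom called any, and the fit with the block called 1, zp3d.2, higher. The egg cell factor gene figla had 1.17 ± 1.21 CPM in tet2 mutants and 0.275 ± 0.395 in wild type, and the egg coat gene zp3d.2 had 11.1 ± 11.6 CPM in tet2 mutants and 3.21 ± 3.91 in wild type. Tet2 mutant 3, with the most egg transcripts, held the lowest value of the 6 libraries for runx1, tal1, LMO2, gfi1b and KIT, while gata2b, gata2a, MYB and gfi1aa were lowest elsewhere. Without both libraries numbered 3 the median log2 fold change of the members was -0.26. Pigment cell markers, which bear on kita, had low levels, at a summed 3.80 to 6.72 CPM in tet2 mutants and 2.85 to 5.42 in wild type over 10 genes. Of these, 6 were tested, with 4 above 0 and 2 below at a median log2 fold change of 0.62. None passed by edgeR, DESeq2 or limma voom or at an unadjusted p under 0.05. Examples above 0 are pmelb, with 0.522 ± 0.167 CPM in tet2 mutants and 0.271 ± 0.187 in wild type, and SLC45A2, with 0.363 ± 0.380 and 0.190 ± 0.0896 CPM in tet2 mutants and wild type. Below 0 were pmela, at a log2 fold change of -0.24, and SOX10, at -0.32.

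**Figure D4:**
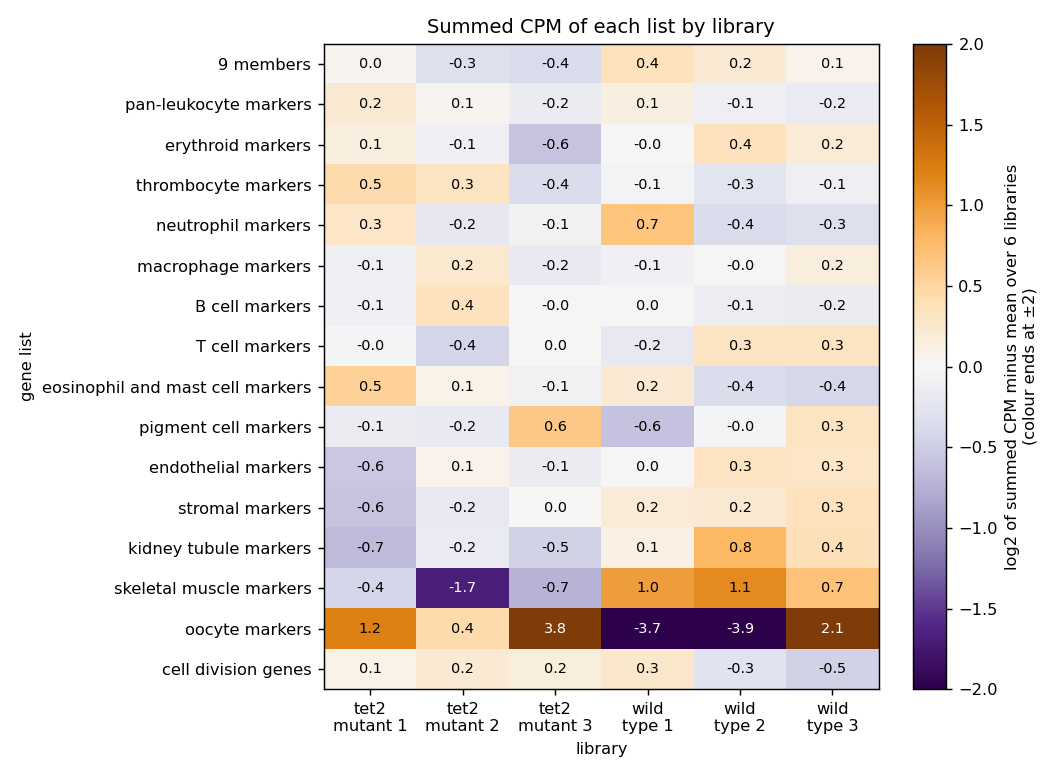
Summed CPM of the 9 members and of each marker list (rows) in each library (columns), as log2 minus the mean over the 6 libraries; colours end at ±2. The members run below 0 in tet2 mutants 2 and 3 and above 0 in all wild type libraries, while oocyte markers lie above 0 in all libraries except wild type 1 and 2. The members' sum, 474 to 627 CPM in tet2 mutants and 644 to 783 in wild type, is mostly MYB (mean 324 and 448 CPM).

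Blood lineages other than the erythroid one showed median log2 fold changes between -0.26 and 0.18, and 0 of their genes passed by edgeR or limma voom. The white cell markers had a median of 0.07 over 5 genes, with arhgdig at 740 ± 98.1 CPM in tet2 mutants and 702 ± 133 in wild type. Thrombocyte markers had a median of 0.10 over 5 genes, neutrophil markers 0.09 over 6 and eosinophil and mast cell markers 0.17 over 4, with 0 genes at an unadjusted p under 0.05 and 0 called by DESeq2 in these 4 lists. Of the thrombocyte genes, 3 were above 0 and 2 below. The coagulation factor gene f5 had 162 ± 64.0 CPM in tet2 mutants and 99.9 ± 19.0 in wild type. Its value in tet2 mutant 3, 89.1 CPM, lay within the wild type range. Below 0 was mpl, with 19.6 ± 3.12 CPM in tet2 mutants and 23.9 ± 1.93 in wild type. The neutrophil gene MMP9, a matrix protease, had 253 ± 101 CPM in tet2 mutants and 135 ± 57.3 in wild type, and the receptor gene CSF3R 344 ± 79.6 CPM in tet2 mutants and 308 ± 30.4 in wild type. The eosinophil peroxidase gene EPX (ENSDARG00000019521) had 2354 ± 578 CPM in tet2 mutants and 1777 ± 495 in wild type. B cell markers had a median of 0.18 over 8 genes and T cell markers -0.26 over 8, each with 1 gene at an unadjusted p under 0.05 and 0 called by DESeq2. The B cell receptor gene cd79b had 23.7 ± 5.36 CPM in tet2 mutants and 15.2 ± 0.403 in wild type, and the T cell costimulator gene cd28 5.80 ± 0.966 CPM in tet2 mutants and 9.64 ± 2.77 in wild type. Macrophage markers had a median of -0.10 over 14 genes, with 3 at an unadjusted p under 0.05. DESeq2 called 2 of them, each a copy of MFAP4 and each lower. One of these copies, ENSDARG00000038683, was also lower in the fit with the block and had 18.0 ± 5.00 CPM in tet2 mutants and 45.2 ± 6.45 in wild type. Further copies of MFAP4 lay on both sides of 0. The log2 fold change was 0.82 for ENSDARG00000090557 and 0.21 for ENSDARG00000090783. It was -0.41 for ENSDARG00000088745 and -1.21 for ENSDARG00000089667. Cell division genes had 12 of 13 above 0 at a median of 0.35, with 1 at an unadjusted p under 0.05. None passed by edgeR, DESeq2 or limma voom. Their sums overlapped, at 2378 to 2582 CPM in tet2 mutants and 1632 to 2721 in wild type. The fit with the block called 1, CCNB1, higher (212 ± 126 CPM in tet2 mutants, 102 ± 36.3 in wild type). CCNB1 was highest in the library numbered 3 of each genotype, at 357 CPM in tet2 mutant 3 and 142 in wild type 3.

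Among themselves the members fell into those that tracked each other and those that did not. Across the 6 libraries, tal1 and runx1 had r = 0.980, tal1 and LMO2 r = 0.961 and MYB and KIT r = 0.974 on log2 CPM. After each genotype's mean was removed, r was 0.998 for tal1 and runx1, 0.923 for tal1 and LMO2 and 0.927 for MYB and KIT. In wild type runx1 varied by less than its counting error (2.52% against 5.03%), so those libraries inform the 0.998 little. The member gfi1b had r of 0.811 to runx1, 0.703 to tal1 and 0.591 to LMO2. With the genotype means removed these were 0.935, 0.932 and 0.948. For gata2b and KIT r was 0.702, and -0.927 once the genotype means were removed. Within genotypes gata2b varied by less than its counting error (3.40% against 8.36% in tet2 mutants, 2.39% against 7.78% in wild type). The value of -0.927 therefore does not show how gata2b and KIT vary together. The member gata2a was not part of the group, with r between -0.341 and -0.111 to MYB, runx1, tal1, LMO2 and KIT. These correlations describe 6 libraries in which egg transcripts, depth and other cell types vary for all genes at once, and the members were chosen as a set.

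Standardised and averaged over the 9 members, the profile was 0.10, -0.46 and -1.12 in tet2 mutant libraries 1, 2 and 3 and 0.60, 0.58 and 0.30 in wild type libraries 1, 2 and 3. Out of 9230 other genes with a descriptive symbol and at least 10 CPM, those most like it across the 6 libraries were PICK1 (r = 0.997), SNX9 (0.994), UBR1 (0.992), SLC6A19 (0.991) and YTHDC1 (0.991). SNX9, a membrane sorting gene, had 39.0 ± 7.75 CPM in tet2 mutants and 50.5 ± 2.45 in wild type. SLC6A19, an amino acid transporter gene of kidney tubule and gut, had 12.5 ± 6.33 CPM in tet2 mutants and 27.9 ± 5.76 in wild type. The adjusted p of these 5 genes lay between 0.335 and 0.525 by edgeR.

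**Figure D5:**
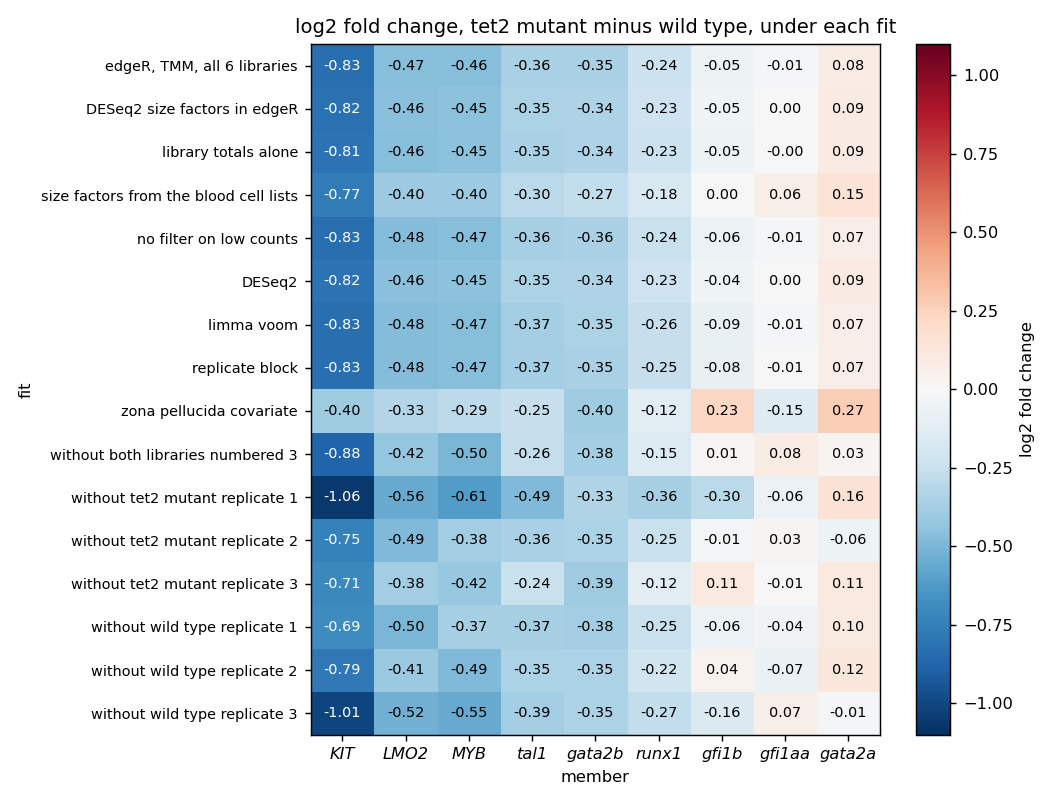
Fitted log2 fold change (tet2 mutant minus wild type) of each member (columns) under each of 16 fits (rows), with the value printed in each cell. KIT, LMO2, MYB, tal1, gata2b and runx1 stay below 0 in all of them, while gfi1b, gfi1aa and gata2a take both signs.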

How the data were processed

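The authors deposited a table of whole-number counts for each library, with unnormalized reads per Ensembl gene. The submitters' processing notes name Trimmomatic 0.36, STAR 2.5.2b and the build GRCz10. How reads were assigned to genes, by strand or with several matches, was not given in the sources used here, so reads of overlapping genes and near-identical copies are of uncertain origin. Symbols came from a table that named 25752 of 31484 gene IDs (81.8%); 213 of 247 listed symbols matched. RefSeq synonyms (GRCz12tu) were used only for names, and sequences of the members were not used here.

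In R 4.3.3, edgeR 4.0.16 compared the genotypes (filterByExpr, TMM, quasi-likelihood F test, two-sided, no covariate) over 21893 genes, with 9591 untested for low counts. Each standard error is the absolute log2 fold change divided by the square root of F. Adjusted p-values of edgeR and limma voom are Benjamini-Hochberg over the genes tested. Those of DESeq2 used its default setting, which can leave genes with low counts out of the adjustment. Those of the ratios cover the 3 pairs compared. DESeq2 1.42.0, limma 3.58.1 (voom), other scalings, no filter, left-out libraries and a zona pellucida covariate were alternatives. Ratios used log2(CPM + 0.5), which shrinks a ratio where 1 gene has a low level, as gfi1aa and gata2b do. The planned ratio of lyl1 to tal1 was not computed, since lyl1 had no row. The tests were also run on simulated counts with the same replicate spread for every gene, no pairing and planted changes larger than that of any member. That run therefore does not show how the tests perform at the sizes seen for the members. No pair of libraries of a genotype was a copy of the other (chi-square per degree of freedom 51.9 to 154). A floor of 3 counts equals 0.0609 to 0.0727 CPM, for counting error only.

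Same-numbered libraries deviated together from their genotype means (r = 0.423, 0.586 and 0.708 for numbers 1, 2 and 3, across 17534 genes, which are not independent), against -0.531 to 0.166 for other pairs. The numbers were therefore taken to pair the libraries, from the data and not from the labels, and adding that number as a block was an alternative, as were sign flips within pairs for the ratios, added after seeing the data. Deviations within a genotype sum to 0, so a high r for same-numbered pairs lowers r for other pairs, and the contrast is partly built in. The part of the egg transcripts of both libraries numbered 3 in these r values was not tested. Named genes were the members, TET2, up to 3 passing genes of each list or else among the 2 with the smallest p, and the 5 genes most like the members' mean profile. The members and lists were chosen with earlier results of these data known.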

Additional observations from a re-analysis of the deposited data

How the results depend on the processing

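The count of 0 members past the threshold and the sign of KIT, LMO2, MYB, tal1, gata2b and runx1 were the same in all 15 alternatives. The median of the members ran from -0.37 to -0.24 without 1 library. The count of 66 changed genes was 36 with library totals alone, 38 with size factors from blood genes, 950 with DESeq2, 468 with the replicate block, 39 with the zona pellucida covariate, 312 without both libraries numbered 3, and 2 to 15 without 1 library (2 without tet2 mutant 1 or 2, 3 without wild type 2). With the block, which pairs same-numbered libraries, KIT had an adjusted p of 0.059, MYB 0.0792 and LMO2 0.136 (edgeR, Benjamini-Hochberg), and no call on the members changed. In another alternative LMO2 came nearer the threshold than with the block, without passing it. DESeq2 called 1 gene of the related lists where edgeR called 0.

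Some signs turned, and the cause was not tested except where stated. The log2 fold change of gfi1aa was 0.0038 with DESeq2 size factors, 0.0643 with blood size factors, 0.0040 with DESeq2 and 0.0782 without both libraries numbered 3, and ran from -0.0703 to 0.0677 without 1 library. That of gfi1b was 0.0002 with blood size factors, 0.23 with the zona pellucida covariate and 0.0087 without both libraries numbered 3, and ran from -0.30 to 0.11 without 1 library, and gata2a from -0.0596 to 0.16. With the covariate zp3d.2, which is itself part of the summed zona pellucida level, had -0.28, epx (ENSDARG00000012535) -0.10 and SLC45A2 -0.27, and SLC45A2 had -0.0554 without both libraries numbered 3. Without 1 library SLC45A2 ran from -0.37 to 1.4202, arhgdig from -0.0493 to 0.2184 and CSF3R from -0.0462 to 0.2667. The ratio of gfi1b to gfi1aa differed by -0.25 to 0.10 without 1 library. Chosen after seeing the data, sign flips within same-numbered pairs of libraries gave p = 0.75 for that ratio and 0.5 for MYB to runx1 (exact). Counting error exceeded the replicate spread for gfi1aa and gata2b in both genotypes and for runx1 in wild type.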
